A study of Homo sapiens with 17 samples.

Results

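Total RNA of human HEK293T cells was compared after 4 h with and without auxin in a line whose INTS1 protein can be degraded on demand. HEK293T is a transformed line from human embryonic kidney. In the INTS1-AID line both copies of INTS1 carry a miniAID tag, a degron that auxin links to the protein degradation machinery. The 4 h series holds 3 libraries with 500 µM auxin and 2 without it, which is 5 of the 17 libraries of the study, and they were chosen by their labels alone. The other 12 are untreated INTS1-AID cells (3), untreated parental HEK293T cells (3) and INTS1-AID cells of a 12 h series with auxin (3) or without it (3). All libraries are stranded and depleted of ribosomal RNA. The samples include no parental cells given auxin, so an effect of auxin itself and an effect of INTS1 loss cannot be told apart. No label says that the replicates came from separate cultures, so each p-value reflects the spread among the libraries alone, and that spread may be technical.

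INTS1 is the scaffold of Integrator, a complex that binds RNA polymerase II (Pol II) near the start of genes. Its endonuclease module cuts the nascent transcript, and an associated phosphatase removes marks that release paused Pol II. It makes the 3′ ends of the spliceosomal small nuclear RNAs (snRNAs), and it ends transcription early at many protein-coding genes, enhancers and long non-coding RNA (lncRNA) genes. Signal-induced genes such as FOS are among its known targets.

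For each of 14479 genes, of 14538 listed, the authors' deposited table gives a log2 change of auxin over no auxin with a p-value adjusted over all genes. Genes with an adjusted p under 0.05 there are called higher or lower below. All log2 changes, adjusted p-values and mean counts quoted are those of the authors' deposited table, and each standard error (SE) is the one its p-value implies. For 12 genes with a listed p of 0, z, the change over its SE, was set to 38. Their SE reflects that limit and not a spread. A deposited column of levels without auxin resolved into whole reads of both no-auxin libraries, so that each can be shown. They held 18285243 and 16166607 reads in genes. The labels do not say which is replicate 1, and they are called the deeper and the shallower library. For the auxin libraries the mean of the 3 could be worked out, to within 0.833 normalized counts, but no single library, so their depth is unknown. A normalized count is a read count divided by a scale factor of its library.

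The no-auxin libraries lay close together. Among 5340 genes with 100 to 1000 normalized counts the median gap between them was 0.09 on the log2 scale, and 95% lay under 0.32. Among 5135 genes with 1000 to 10000 these values were 0.05 and 0.16. Across 12995 genes the level without auxin followed that in untreated INTS1-AID cells (Pearson's r = 0.992 between log2 levels, across genes of 1 line, which are not independent replicates). The summed normalized counts were close with and without auxin, as the scaling sets, so a change in RNA per cell or in the number of cells cannot be seen. In bulk RNA, fewer cells of a type and less RNA per cell cannot be told apart either.

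INTS1 mRNA itself (ENSG00000164880, hg38 chr7:1470277-1504389) had 2791 and 2623 normalized counts without auxin and a mean of 2394 with it. Its deposited log2 change was -0.18 (SE 0.06, adjusted p = 0.0123 by the authors' DESeq2 test). Auxin acts on the tagged protein, so this mRNA value does not check its loss. The identity of the cells was checked with kidney, adrenal and neural genes known from this line. Of 20 listed, 15 were tested, none of them at 0 without auxin, and their summed normalized counts were 5235, 5237 and, with auxin, 8349. Blood markers summed to 147, 157 and 404 over 4 of 10 listed genes, and CORO1A and CD68 of these were called higher. Of 10 fibroblast markers only PDGFRA was tested (41.1, 33.2 and 51.9). Of 8 intestinal markers LGR5 and CDX2 were tested, with sums of 850, 764 and 1180. The part of other cells in the results was not tested.

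At 4 h, 2774 genes (19.2% of those tested) were called higher and 2779 (19.2%) lower, which together is 38.4%. The counts are alike and the sizes are not. The median deposited log2 change was 0.56 among the higher genes and -0.30 among the lower ones, against 0.005 over all genes. A rise of at least 1 was seen in 771 genes (5.32% of those tested), of at least 2 in 234 and of at least 4 in 32. A fall of at least 1 was seen in 30 (0.207%), and of at least 2 in 1. The auxin mean lay outside the range of both no-auxin libraries for 5553 of 5553 called genes and for 73.2% of the 8926 others. The deposited change was larger than the gap between the no-auxin libraries for 98.6% of the called genes. The calls rest on these same libraries, so such shares follow largely from the call and do not check it.

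Large rises started from low levels. Per kb of transcript, the median level without auxin was 3.25 on the log2 scale for genes that rose by at least 2, 7.20 for all higher genes, 8.55 for lower genes and 7.57 for all tested. The level without auxin is also the base of the change, so an error that lowers it raises the change. Shares by level in untreated cells, which are separate libraries, are given below. Sums of gains and losses depend on the scaling, so only single genes are given. PCDH9, a protocadherin of cell adhesion, gained the most, from 1920 and 2004 to a mean of 26570. KCTD12, an auxiliary subunit of GABA-B receptors, went from 6343 and 6298 to 18633. GLUL, glutamine synthetase, went from 13412 and 13648 to 24905. Each of these 3 means lies well above both no-auxin libraries. The largest loss was that of NUCKS1, a chromatin-associated protein, from 38471 and 39426 to 30758. BCLAF1, a nuclear protein tied to mRNA processing, went from 16087 and 16160 to 11233.

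**Figure D1:**
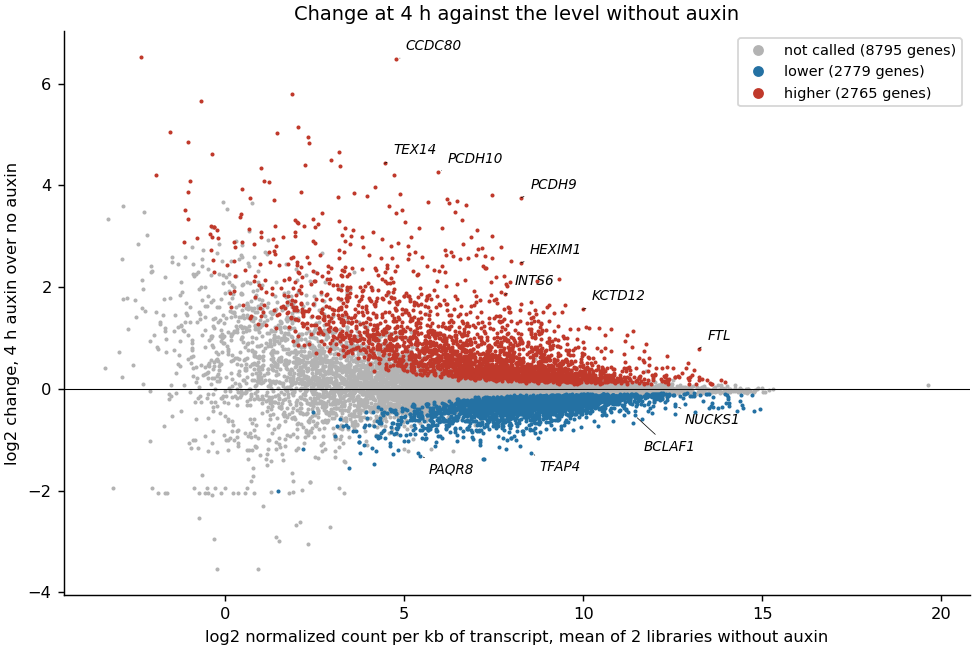
Each point is a gene, with the log2 normalized count per kb in the libraries without auxin (mean of 2, x axis) against the deposited log2 change at 4 h (y axis). Called genes are red (higher) or blue (lower), and genes with 0 reads in both no-auxin libraries are not shown. Rises reach above 6 at low levels, whereas the called falls stay mostly within 1.

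CCDC80, a secreted protein of the extracellular matrix, rose the most of the called genes whose mean count reached 100. It had 121 and 75.7 normalized counts in the no-auxin libraries and a mean of 8841 with auxin (ENSG00000091986, hg38 chr3:112605101-112641300, deposited log2 change 6.48, SE 0.17, adjusted p listed as 0). Its SE comes from the limit of 38 on z, since its p was listed as 0. Both low values were far under the auxin mean. DIO3, the deiodinase that inactivates thyroid hormone, went from 4.70 and 10.6 to 415 (5.795, SE 0.43). FOSB, a subunit of the AP-1 transcription factor, went from 14.1 and 6.64 to 344.8 (5.03, SE 0.38). For DIO3 and FOSB the no-auxin libraries rest on few reads. TEX14, a protein of germ cell bridges, had more reads, with 101, 117 and 2347 (4.43, SE 0.12). PCDH10, a protocadherin, went from 288 and 281 to 5485 (4.27, SE 0.11), and HAP1, a partner of huntingtin in vesicle transport, from 118 and 126 to 1725 (3.83, SE 0.12).

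The other genes among the 20 largest rises were CRISPLD2, SOCS1, SNAI1, RASD1, NEDD9, NGFR, ARC, FOS, PLK5, DLL4, GADD45B, DEPP1, CCDC116 and RPL3L, with deposited log2 changes from 3.78 (CCDC116) to 5.15 (RPL3L). They include signalling and transcription genes such as SNAI1, a repressor that acts in epithelial-mesenchymal transition, and NGFR, the low-affinity neurotrophin receptor. RPL3L is the form of ribosomal protein L3 found mainly in muscle, and it had 8.23 and 9.29 normalized counts without auxin and a mean of 307 with it. In untreated INTS1-AID cells, libraries that no 4 h comparison used, the 20 genes had a median of 38.2 normalized counts.

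Falls were smaller. PAQR8, a membrane progestin receptor, went from 206 and 216 normalized counts to a mean of 84.3 (ENSG00000170915, hg38 chr6:52362151-52407777, deposited log2 change -1.31, SE 0.18, adjusted p = 1.65e-11 by the authors' DESeq2 test). TFAP4, a transcription factor that binds E-boxes, went from 852 and 757 to 336 (-1.27, SE 0.10). CAMKK1, a kinase that activates calmodulin-dependent kinases, went from 825 and 814 to 359 (-1.18, SE 0.09). In each of these 3 genes the auxin mean lies far under both no-auxin libraries, which are close to each other. PPARGC1B, a coactivator of mitochondrial genes, went from 1575 and 1364 to 707 (-1.05). ZKSCAN1, a zinc finger factor, went from 2202 and 2206 to 1091 (-1.02), and ARHGAP35, a GTPase-activating protein, from 2676 and 2504 to 1297 (-0.998). PCIF1, which methylates the adenosine next to the mRNA cap, went from 364 and 386 to 175 (-1.10). The other 13 of the 20 largest falls were SLFN5, DHX35, CCDC71, ZC3H6, MBLAC2, BICRA, NR2C2, PSKH1, ZNF280D, TMEM223, SLITRK5, JAZF1 and PANK1, from -1.16 (SLFN5) to -0.97 (PANK1).

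**Figure D2:**
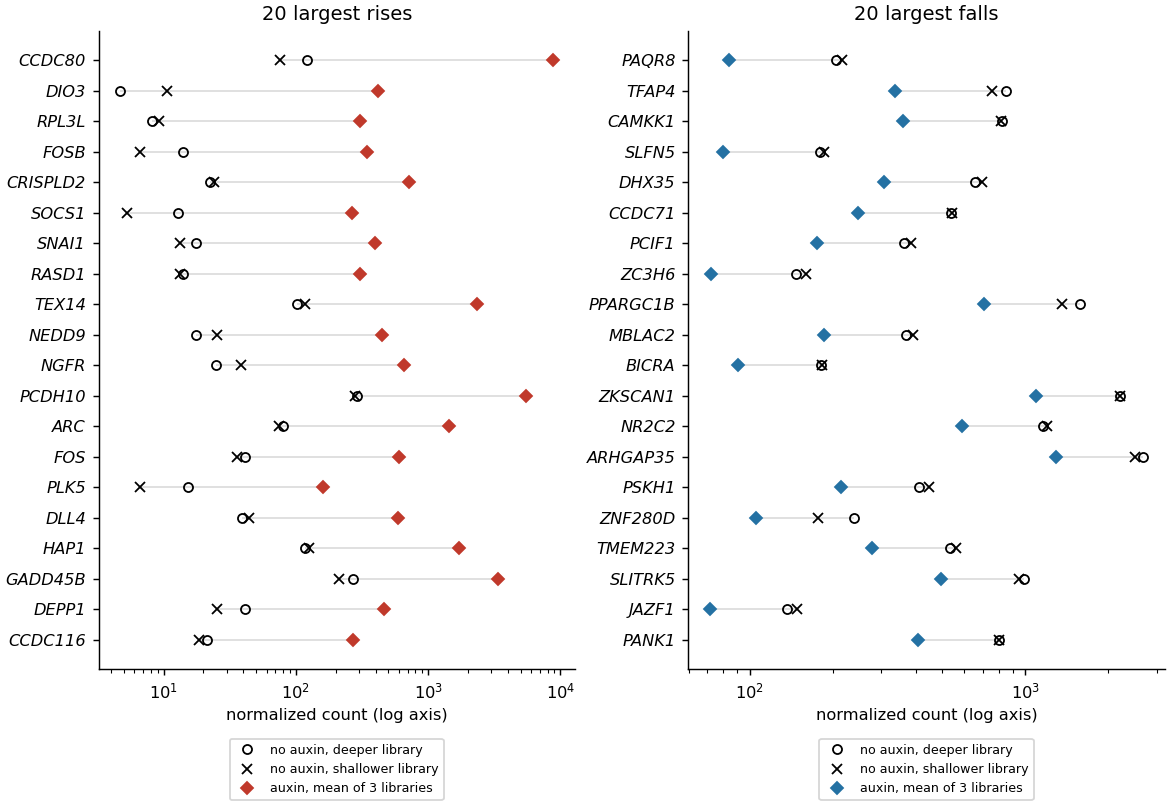
Normalized counts (log axis) of the 20 largest rises and the 20 largest falls among called genes of mean count 100 or more. Circles and crosses are the deeper and the shallower no-auxin library, and diamonds the mean of 3 auxin libraries. CCDC80 goes from 121 and 75.7 to 8841, while the falls are near 2-fold, as for ZKSCAN1 from 2202 and 2206 to 1091.

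Of 140 tested genes with 0 reads in both no-auxin libraries, 9 were called higher. TRIM43, a gene known from early embryos, had an auxin mean of 21.7 normalized counts, at least 10.5-fold over a floor of 3 reads for both libraries together. CCR7, a chemokine receptor, and the lncRNA AC018653.1 each had 6.67, at least 2.93-fold. The others, GRM3, TRIM43B, CCDC200, FOCAD-AS1, AP003721.3 and HBA2, had 3.33 to 5 and bounds of 1.26 to 2.09. These values rest on few reads, and floors cover counting error only. TRIM43 and TRIM43B are close copies of each other, and HBA2 of HBA1, and the sources used here do not say how reads were split between such copies.

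Growth arrest genes rose together. Of 14 tested, 12 were called higher and 0 lower, against 19.2% higher over all genes, with a median log2 change of 1.47 against 0.005 over all genes. GADD45B, a stress sensor that binds cell cycle kinases, went from 268 and 212 normalized counts to 3390 (deposited log2 change 3.81, SE 0.10). CDKN2B, an inhibitor of the kinases CDK4 and CDK6, went from 206 and 170 to 2433 (3.69, SE 0.10). BTG2, an antiproliferative partner of the deadenylase complex, went from 363 and 336 to 2157 (2.62, SE 0.08), and CDKN1A, the inhibitor p21, from 361 and 330 to 1855 (2.42, SE 0.08). In each of these 4 genes the auxin mean lay far above both no-auxin libraries. CDKN1B and CDKN2D were not called, at -0.07 and 0.42. Of 44 DNA replication genes 15 were called lower and 4 higher, and 8 lower and 3 higher at an adjusted p under 0.01. Of 33 mitotic genes 8 were lower and 10 higher, and 5 and 9 at that threshold. Over all 14479 tested genes 19.2% were called lower as well, and at that threshold 2088 were lower and 2218 higher. The lower replication genes included the licensing factor CDT1 (1622 and 1709, mean 1096 with auxin, -0.60), while RRM2, a subunit of ribonucleotide reductase, went from 5660 and 5822 to 11874 (1.05).

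Most transcription factors of the immediate early response were called higher. In the AP-1 list 9 of 13 tested genes were called higher and 2 lower (median 1.29). Among EGR, NR4A and IER genes 8 of 13 were higher and 1 lower (1.63). The share over all genes was 19.2% in each direction. FOS went from 41.1 and 35.8 normalized counts to 599 (deposited log2 change 3.96), JUNB from 251 and 280 to 1796 (2.76) and IER5L from 85.8 and 129 to 682 (2.68). The KLF factors split. KLF4 went from 99.9 and 115 to 843 (2.98) and KLF5 from 731 and 759 to 2205 (1.56), whereas KLF11 went from 649 and 611 to 390 (-0.69) and KLF3 from 1653 and 1667 to 1045 (-0.67). In that list 4 of 14 were higher and 4 lower, so neither direction prevailed.

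Feedback genes of the ERK kinase pathway were mostly called higher, against 19.2% of all genes. Of 21 tested, most of them inhibitors of the pathway and ETV1, ETV4 and ETV5 transcription factors induced by it, 16 were higher and 0 lower (median 0.68). SPRY4, a Sprouty inhibitor of receptor kinase signalling, went from 21.2 and 18.6 normalized counts to 193 (deposited log2 change 3.28, SE 0.30). DUSP5, a nuclear ERK phosphatase, went from 69.3 and 71.7 to 510 (2.86), and DUSP1, a phosphatase of stress kinases, from 452 and 472 to 1935 (2.07). Related lists had smaller shares called higher, with 4 of 11 SOCS and cytokine feedback genes higher and 1 lower (median 0.25), and 7 of 15 TGF-beta and BMP response genes higher and 3 lower (0.50).

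Many secreted ligands were called higher. Of 39 secreted growth factors and cytokines tested, 15 were higher and 2 lower (median 0.72), against 19.2% of all genes in each direction. The list had a median mean count of 106, and 21 of the 39 reached 100. In newly made RNA, described below, 13 were higher and 4 lower (median 0.28). Over all genes 13.3% were higher and 10.7% lower in that assay. HBEGF, a ligand of the EGF receptor, went from 127 and 111 normalized counts to 1526 (deposited log2 change 3.67), and TNFSF9, the ligand of 4-1BB on T cells, from 162 and 187 to 2117 (3.60). Among 23 Notch pathway genes 12 were higher and 5 lower (0.38). The ligands DLL4 (38.8 and 43.8, mean 596 with auxin, 3.86), JAG1 (362 and 349, mean 1080, 1.602) and the sugar transferase LFNG (38.8 and 46.5, mean 360, 3.09) were higher. The target HES1 went from 702 and 717 to 1524 (1.10). JAG2 (-0.66), NOTCH3 (-0.49) and MAML1 (-0.42) were called lower, and RBPJ, the DNA-binding partner of Notch, was not called at 0.00. Of 26 Wnt feedback and target genes 12 were higher and 1 lower (0.30), among them NKD1, an inhibitor of the pathway, from 290 and 284 to 1142 (1.99).

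Of 23 hypoxia response genes 14 were higher and 1 lower (median 0.40), against 19.2% of all genes in each direction. The labels state no change in oxygen. EGLN3, a prolyl hydroxylase that marks HIF for destruction, went from 255 and 292 normalized counts to 1974 (deposited log2 change 2.86), and VEGFA, an angiogenic factor, from 927 and 921 to 2327 (1.33). Of 8 tested genes of the aryl hydrocarbon receptor list 6 were higher and 1 lower (0.93). CYP1A1 went from 37.6 and 47.8 to 262 (2.63) and CYP1B1 from 358 and 394 to 1526 (2.02); both are oxidases that this receptor switches on. In the integrated stress response list 18 of 39 were higher and 5 lower (0.13), with ATF3 from 353 and 300 to 1698 (2.38) and DDIT3 from 289 and 228 to 1208 (2.22).

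Tubulin, HOX and kidney or neural genes had more members higher than lower, while matrix genes did not stand out. Of 14 tubulin genes 9 were higher and 0 lower (median 0.43), against 19.2% of all genes in each direction. TUBA4A went from 82.3 and 94.2 normalized counts to 790 (deposited log2 change 3.17), TUBB3, a neuronal beta-tubulin, from 294 and 308 to 2414 (3.01), and TUBA1A from 984 and 962 to 2738 (1.49). The abundant members TUBA1B (0.01) and TUBB (-0.04) were not called. Tubulin genes are near-identical in parts, so reads may be shared between them. Of 31 HOX genes, which set position along the body axis, 16 were higher and 1 lower (0.31). HOXA5 went from 1283 and 1202 to 2293 (0.88) and HOXD8 from 115 and 143 to 290 (1.18), while HOXD3 was called lower (-0.63). At 12 h, 9 HOX genes were higher and 10 lower (0.04), against 21.9% of all tested genes higher and 22.3% lower at that time. Of 20 collagen genes 4 were higher and 2 lower at 4 h (-0.004), and of 23 laminin and integrin genes 4 were higher and 3 lower (0.02). Of the 15 kidney, adrenal and neural genes 9 were higher and 0 lower (0.73), among them NES, the intermediate filament nestin, from 227 and 244 to 823 (1.81).

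Genes of the Pol II machinery were called in both directions within single complexes. Of 19 Integrator genes tested 9 were higher and 3 lower (median 0.07), INTS1 being one of the 3. The share over all genes was 19.2% in each direction. The paralogs INTS6 (1639 and 1772, mean 6163 with auxin, deposited log2 change 1.85) and INTS6L (667 and 691, mean 2899, 2.09) and NABP1, the single-stranded DNA-binding partner of INTS3 (582 and 600, mean 2516, 2.09), lay far above both no-auxin libraries. INTS6 links the complex to its phosphatase. The catalytic subunit INTS11 (-0.24) was called lower and INTS9 (-0.15) was not called. POLR2A, the largest Pol II subunit, went from 3074 and 3082 to 6103 (0.99, SE 0.10), whereas the other 12 genes of that list lay between -0.31 (POLR2D) and 0.22 (POLR2L).

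The P-TEFb list, on the kinase that releases paused Pol II, had 8 of 21 genes higher and 7 lower (median 0.02). The share over all genes was 19.2% in each direction. Both HEXIM1 and MEPCE rose. HEXIM1, which holds the kinase inactive, went from 1127 and 1103 normalized counts to 6208 (deposited log2 change 2.48) and MEPCE, which caps 7SK RNA in the same inhibitory particle, from 2343 and 2179 to 3859 (0.77). The kinase CDK9 itself (-0.58) and its cyclins CCNT1 (-0.24) and CCNT2 (-0.48) were called lower. LARP7, which also binds 7SK, was not called (-0.04). Of 18 pausing and PAF factors 1 was higher, CTR9 (3938 and 3679, mean 5601 with auxin, 0.56), and 7 lower, among them NELFA (-0.39) and NELFB (-0.35).

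RNA processing genes leaned down, by small amounts. Of 27 cleavage and polyadenylation factors 14 were lower and 3 higher (median -0.17), led by WDR33, which binds the polyadenylation signal, from 4775 and 4777 normalized counts to 3216 (deposited log2 change -0.57, SE 0.05). Of 27 nuclear exosome genes 10 were lower and 2 higher (-0.11), of 24 SR and CLK splicing genes 13 lower and 4 higher (-0.16), and of 33 Mediator subunits 13 lower and 4 higher (-0.11). SRSF4, a splicing factor, went from 4412 and 4057 to 2749 (-0.62), and EXOSC10, the nuclear exosome's exonuclease, from 4025 and 4251 to 3051 (-0.44). MED18 (0.78) and SRSF8 (0.73) were called higher against the lean of their lists. Of 44 ribosome biogenesis genes 22 were lower and 2 higher (-0.11), with WDR43 from 9822 and 9809 to 7230 (-0.44). The lower shares in these lists exceed the 19.2% background, while their medians differ from the 0.005 of all genes by under 0.2.

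Several housekeeping and large families had few calls, split ones or more members lower than higher. Of 85 cytosolic ribosomal protein genes 2 were higher and 5 lower (median -0.03), of 78 mitochondrial ribosomal protein genes 8 higher and 21 lower, of 81 respiratory chain genes 4 higher and 11 lower (0 and 4 at an adjusted p under 0.01), and of 411 ZNF genes 68 higher and 74 lower. At that threshold 2218 of all 14479 genes were higher and 2088 lower. Of 46 DNA damage and repair genes 7 were higher and 11 lower, and of 15 NF-kB pathway genes 4 higher and 4 lower. The share over all genes was 19.2% in each direction. In newly made RNA, described below, 50 of the 85 cytosolic ribosomal protein genes were lower and 1 higher (median -0.30). Over all genes 10.7% were lower in that assay.

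**Figure D3:**
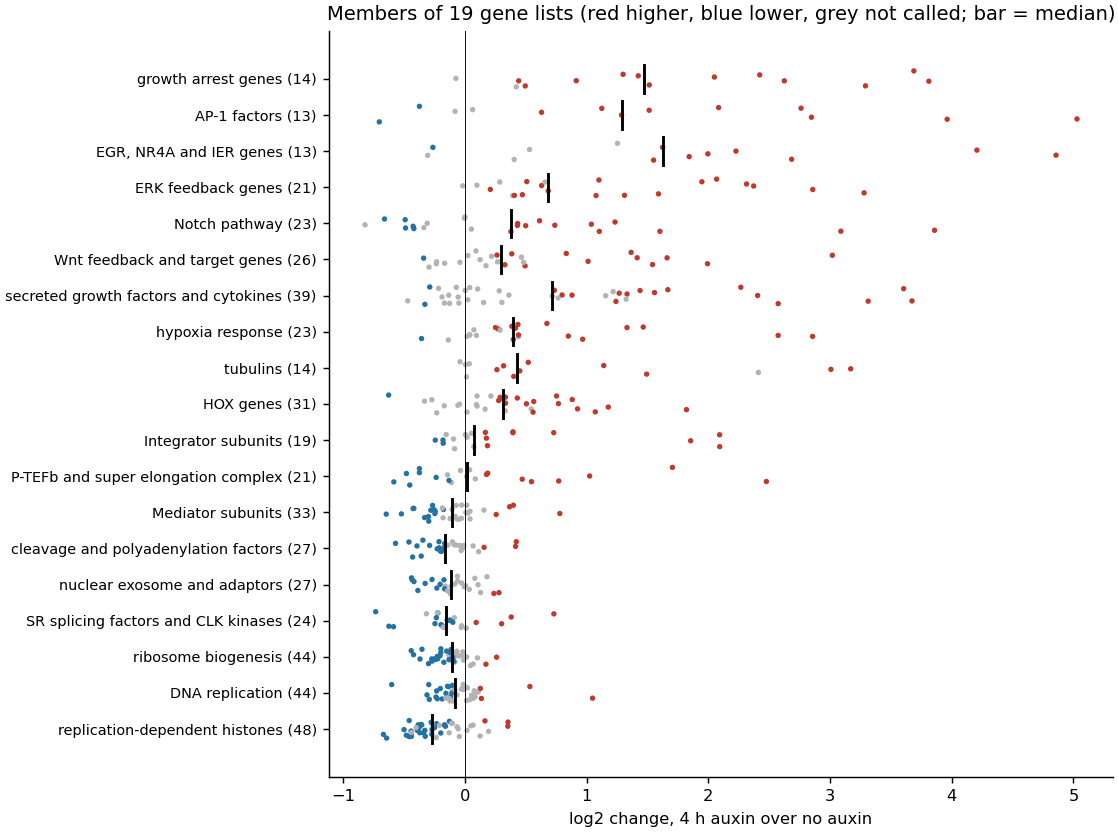
Deposited log2 changes at 4 h (x axis) of the tested members of 19 gene lists, with the number tested in brackets. Red points were called higher, blue lower and grey neither, and the bar is the list's median. Growth arrest genes have a median of 1.47, while cleavage and polyadenylation factors have one of -0.17 with 14 of 27 lower.

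Non-coding genes leaned up, as did protein-coding genes of low level. Of 1353 lncRNA genes 15.7% were called higher and 1.40% lower, with a median deposited log2 change of 0.49, against 19.6% and 21.5% of 12812 protein-coding genes and a median of -0.01. The lncRNA genes had a median mean count of 11, which limits how many can be called. Of 897 protein-coding genes under 10 normalized counts per kb in untreated cells, 17.7% were higher and 0.334% lower. Their median change was 0.53 and their median mean count 10. The part of level in the lean of lncRNA genes was not tested. Where the mean count reached 100, the share of lncRNA genes called higher was 45.7%. Over all genes at that limit, 2351 of 10937 were higher. That count uses p-values adjusted again over the genes at the limit, so it is not a part of the deposited calls. The mean count includes the auxin libraries, so a rise itself helps a gene to reach the limit. LINC02575 went from 204 and 175 normalized counts to 1323 (2.80, SE 0.11), ACVR2B-AS1 from 24.7 and 35.8 to 260 (3.12, SE 0.25) and CD2BP2-DT from 44.7 and 42.5 to 171 (1.97, SE 0.24). The libraries are stranded, but the sources used here do not give the strand setting of the counting, so reads of an antisense gene and of its partner may not be separate.

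A lncRNA that starts within 1000 bases of a protein-coding gene on the other strand had values that varied little with those of that gene. In 517 such pairs, 110 of the lncRNAs were higher and 8 lower (median deposited log2 change 0.66), and the changes of both partners were weakly related across pairs (Pearson's r = -0.08, Spearman's rho = -0.03, a description across pairs of the same libraries). The lncRNA's median was 0.69 where the coding gene was higher (112 pairs), 0.72 where it was lower (121) and 0.60 where it was not called (284). For 836 lncRNA genes without such a partner the median was 0.42. Downstream genes were alike in value after neighbours that rose and that were not called. Within 10 kb downstream of a gene that rose by at least 1, on the same strand, the median change was 0.006 and 14 of 84 genes were higher, against -0.02 and 184 of 1200 after a gene that was not called.

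The snRNA genes, most of whose 3′ ends Integrator is known to make, were higher in 21 of 94 cases and lower in 2. The shares are 22.3% and 2.13%, against 19.2% of all genes in each direction, so the share higher was near background. The snRNA genes had a median deposited log2 change of 0.36 and a median mean count of 14. Coding genes under 10 untreated normalized counts per kb, with a median mean count of 10, had a median change of 0.53. RNU2-63P went from 186 and 234 normalized counts to 484 (1.21), RNVU1-8 from 139 and 182 to 362 (1.19) and RNVU1-4 from 119 and 142 to 291 (1.17). The snRNA genes are multicopy families with near-identical members, so single copies are uncertain, and reads past the mature 3′ end cannot be told from mature RNA in a gene count. Histone genes, which have their own 3′ end machinery, were mostly called lower. Of 48 replication-dependent histone genes 28 were lower and 3 higher (median -0.27). H2AC15 went from 1301 and 1368 to 837 (-0.67) and H1-3, a linker histone, from 6506 and 7274 to 5012 (-0.46). At 12 h the list stood the other way, with 44 of the 48 higher and 1 lower (median 0.65), and H1-3 at 0.67, while H2AC15 stayed lower at -0.39. Over all tested genes 21.9% were higher and 22.3% lower at 12 h. Single histone genes also resemble each other in sequence.

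Gene structure went along with direction. Among protein-coding genes, 35.5% of 265 genes with 1 exon were higher and 13.6% lower. The share higher was 36.0% at 2 exons, 27.4% at 3 to 4, 21.5% at 5 to 8 and 13.5% at 17 or more, where 32.1% of 2881 genes were lower. The 95% Wilson intervals, which treat genes as independent and cover counting error only, were 29.96 to 41.4 for the share higher at 1 exon and 12.3 to 14.8 at 17 or more. Among genes under 10 kb the share higher was 35.8% of 257 genes with 1 exon, 37.8% with 2, 31.4% with 3 to 4, 24.0% with 5 to 8 and 21.0% of 514 with 9 to 16. The share lower had no such order there, at 14.01%, 11.8%, 7.45%, 10.5% and 17.5%. Genes with more exons had larger counts, with a median mean count of 1068 at 17 or more exons against 265 at 1 exon, and small changes pass the test more easily at large counts. By level in untreated cells, 16.9% of 897 coding genes under 10 normalized counts per kb rose by at least 1, against 11.4% at 10 to 100, 2.57% at 100 to 1000 and 0.283% at 1000 or more. The part of counts and levels in the order by exons was not tested.

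Promoters of the genes that rose most were searched for 9 motifs on both strands, from 250 bases before to 50 after the start site. RefSeq promoters (GRCh38.p14) within 1000 bases of the deposited start were found for 10325 of the 14479 genes. The TATA box letters TATAAA, to which the TATA-binding protein attaches, were present in 21.8% of 156 genes that rose by at least 2 (95% Wilson interval 16.04 to 28.9), 9.20% of 326 that rose by 1 to 2, 5.68% of 1514 that rose by less, 4.49% of 6106 not called and 4.09% of 2223 lower. The share over all 35116 promoters of the table was 11.5%. Counting only matches on the gene's own strand that begin 40 to 20 bases before the start, where a working TATA box lies, the shares in the same order were 17.3%, 5.21%, 2.58%, 1.20% and 1.26%, and 2.30% over the whole table. The strand and window, and then a limit to genes with under 100 normalized counts per kb in untreated cells, were added after the first shares were seen. Under that limit 15.8% of 120 genes that rose by at least 2 and 1.72% of 1914 not called had the match. It was present in 2.31% of 216 genes that rose by 1 to 2, 1.58% of 253 that rose by less and 0.633% of 158 lower. At these low levels only the largest rises thus stood apart from genes not called.

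The upstream 80 bases are shown for the 6 largest rises with such a match and a mean count of 100 or more, with TATAAA in capitals and the last base next to the start site.
DIO3: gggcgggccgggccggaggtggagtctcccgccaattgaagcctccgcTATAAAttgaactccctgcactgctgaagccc
FOSB: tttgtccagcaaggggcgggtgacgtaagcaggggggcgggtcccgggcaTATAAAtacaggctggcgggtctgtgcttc
FOS: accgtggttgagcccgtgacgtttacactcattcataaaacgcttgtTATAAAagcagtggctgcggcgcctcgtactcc
HAP1: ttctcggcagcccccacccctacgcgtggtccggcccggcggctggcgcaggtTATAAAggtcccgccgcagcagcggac
GADD45B: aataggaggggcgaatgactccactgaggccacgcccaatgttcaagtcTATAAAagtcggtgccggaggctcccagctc
DEPP1: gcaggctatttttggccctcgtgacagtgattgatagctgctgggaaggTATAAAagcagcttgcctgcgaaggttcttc
They lie at chr14:101561415-101561494 (plus strand), chr19:45467916-45467995 (plus), chr14:75278748-75278827 (plus), chr17:41734647-41734726 (minus), chr19:2476047-2476126 (plus) and chr10:44978810-44978889 (minus). The first T lies 32, 30, 33, 27, 31 and 31 bases before the start, in that order. A match is a description of letters and does not show a factor at work.

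The 2 largest rises with a matched promoter but no TATAAA on either strand, and the 2 largest falls with a matched promoter, are shown for contrast.
CCDC80: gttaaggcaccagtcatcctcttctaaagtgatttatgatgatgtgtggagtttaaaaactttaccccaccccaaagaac
CRISPLD2: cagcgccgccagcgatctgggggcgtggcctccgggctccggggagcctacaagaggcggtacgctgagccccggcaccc
CAMKK1: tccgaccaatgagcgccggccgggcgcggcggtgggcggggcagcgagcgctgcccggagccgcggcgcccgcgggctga
DHX35: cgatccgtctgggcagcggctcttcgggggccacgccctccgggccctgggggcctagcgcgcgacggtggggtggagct
They lie at chr3:112641144-112641223 (minus), chr16:84819905-84819984 (plus), chr17:3893054-3893133 (minus) and chr20:38962264-38962343 (plus). The RefSeq start of CCDC80 lies 157 bases from the deposited one and that of DIO3 144 bases. No match says only that these letters are absent from the window.

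The other motifs showed no such step. The cyclic AMP response element TGACGTCA was in 1.92% of the promoters of genes that rose by at least 2 and 3.53% of all tested with a promoter (1.85% over the whole table), and its shorter core TGACG, which every full element holds, in 29.5% and 35.8% (24.6%). The AP-1 site TGAGTCA was in 3.21% and 2.31% (4.95%), the CArG box that SRF binds in 2.56% and 1.03% (1.29%), the ATF4-CEBP site TGATGNAA in 1.92% and 1.19% (3.62%), the xenobiotic response element TNGCGTG in 5.77% and 7.55% (5.51%), the NF-kB site in 15.4% and 13.3% (11.3%) and the GC box GGGCGG in 80.1% and 76.0% (45.0%). For each of these motifs the 95% Wilson interval of the first share holds the second.

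**Figure D4:**
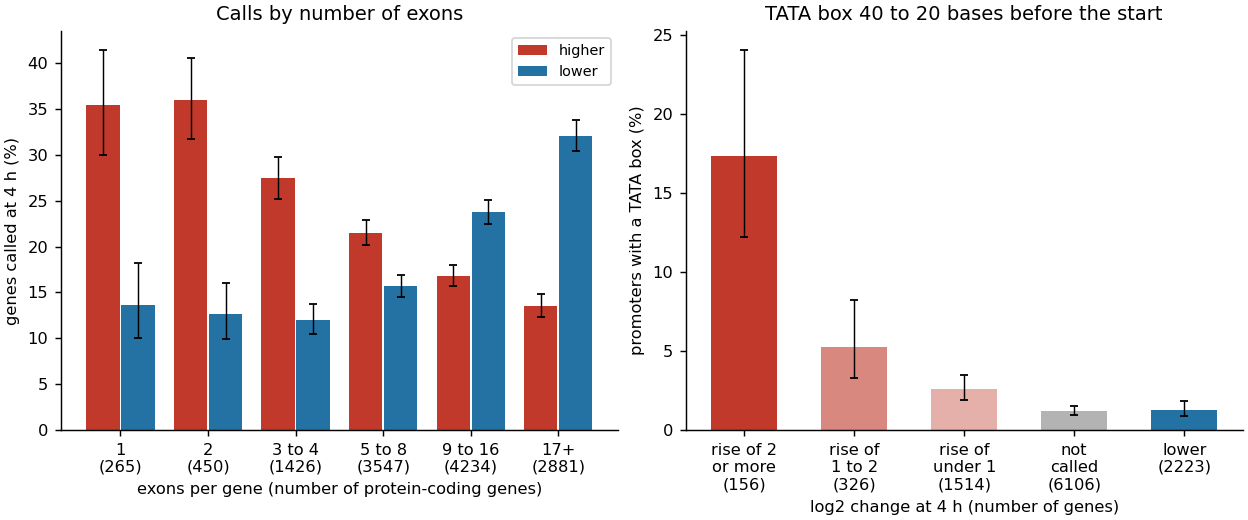
Left, percent of protein-coding genes called higher (red) or lower (blue) by number of exons. Right, percent of promoters with TATAAA on the gene's strand beginning 40 to 20 bases before the start, by log2 change at 4 h; bars carry 95% Wilson intervals and the number of genes stands under each. The share higher goes from 35.5% at 1 exon to 13.5% at 17 or more, and the TATA share from 17.3% at rises of at least 2 to 1.20% among genes not called.

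The same table holds the authors' comparison of newly made RNA, measured by TT-seq, in which RNA made in a short labelling time is purified. It covers 4 h of INTS1 loss and 4 h of loss of INTS8, another Integrator subunit that links the complex to its phosphatase. The headers do not state the direction, which was taken as loss over control. Over all genes with a value, 13.3% were called higher and 10.7% lower in new RNA on INTS1 loss, and 6.56% and 2.87% on INTS8 loss. Of the 2774 genes higher in total RNA, 1554 (56.0%) were higher in new RNA and 2 lower. Of the 2779 lower genes, 1040 (37.4%) were lower and 3 higher. On INTS8 loss the counts were 810 higher and 0 lower of the first group, and 287 lower and 1 higher of the second. Across 10937 genes whose mean count reached 100, log2 changes in total and new RNA on INTS1 loss correlated with Pearson's r = 0.88 and Spearman's rho = 0.78, and with the new RNA on INTS8 loss 0.82 and 0.66, as descriptions across genes. The sources used here do not say whether the assays share cells.

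For most of the largest rises both assays gave similar sizes, as for FOSB (5.03 in total RNA and 4.84 in new RNA, both deposited log2 changes) and TEX14 (4.43 and 4.77). CCDC80 rose more in total RNA (6.48) than in new RNA (4.18), as did CCDC116 (3.78 and 1.92) and PGF, a placental growth factor (2.41 and 1.05). WNT11, a secreted Wnt ligand, rose from 49.4 and 59.7 normalized counts to 145 (1.42) with a change of 0.10 in new RNA. The gap between the assays was not tested. Opposite calls at mean counts of 100 or more were few and small. HNRNPA1, a splicing repressor, was higher in total RNA (15909 and 15223, mean 16946 with auxin, 0.12) and lower in new RNA (-0.28). TRNT1 (-0.28 and 0.40), TTC19 (-0.13 and 0.40) and MCM4, a subunit of the replicative helicase (-0.10 and 0.27), were lower in total RNA and higher in new RNA.

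Some genes were called in new RNA alone. Among genes whose mean count reached 100 and that were not called in total RNA at 4 h, 365 were lower and 212 higher in new RNA. Of the 365, 226 were lower in total RNA at 12 h and 11 higher; of the 212, 82 were higher and 7 lower. At 12 h, 21.9% of all tested genes were called higher and 22.3% lower. GPM6A, a neuronal membrane glycoprotein, had deposited log2 changes of -2.55 in new RNA, -0.08 in total RNA at 4 h and -0.93 at 12 h. TSPAN18, a tetraspanin, had -1.35, -0.27 and -2.20, and RERG, a small GTPase, -1.67, -0.45 and -1.61. LPL, lipoprotein lipase, went the other way, with 1.62 in new RNA, 0.35 at 4 h and 0.22 at 12 h, neither RNA value being called. These 4 genes were chosen among the largest of this kind after their values were seen.

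**Figure D5:**
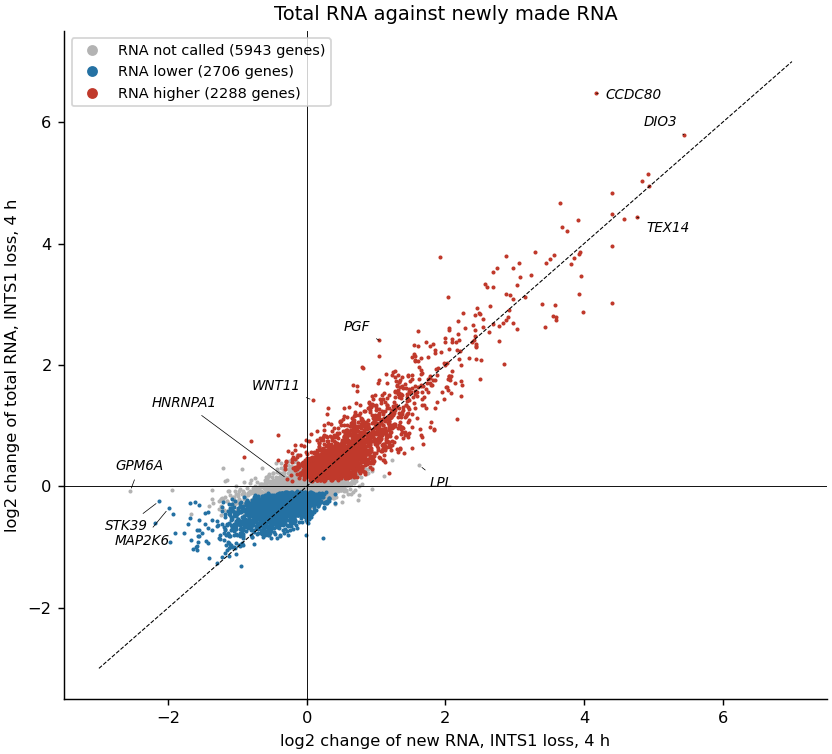
Deposited log2 change of new RNA on 4 h of INTS1 loss (x axis) against that of total RNA (y axis) for genes of mean count 100 or more, colored by the call in total RNA, with the line of equal change dashed. Most genes follow the line, CCDC80 lies above it at 6.48 against 4.18, and STK39 lies left of it at -0.25 against -2.13.

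The 12 h series addresses which of the 4 h changes grew, held or shrank; its direction was taken as that of the 4 h series. Of the 2774 genes higher at 4 h, 1959 (70.6%) were higher and 39 lower at 12 h, and of the 2779 lower genes 1679 (60.4%) were lower and 58 higher. The difference between both times was tested with a Wald z test on the deposited log2 changes and implied SEs, adjusted over 14460 genes, of which 14.9% passed. Among genes higher at 4 h, 397 were further up at 12 h and 199 lower than at 4 h. Among genes lower at 4 h, 448 were further down and 204 higher than at 4 h. These groups were chosen by the same 4 h change that the difference subtracts. Errors in that change thus favour smaller changes at 12 h, and the counts within the groups are descriptions. The series are separate sets of libraries with their own controls, so a difference between times and one between series cannot be told apart.

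The 8 genes with the largest z in each direction are given here. NEFM, the medium neurofilament, had 488 and 446 normalized counts without auxin and a mean of 1074 with it at 4 h, and its deposited log2 change went from 1.20 (SE 0.09) at 4 h to 3.24 at 12 h. NEFL, the light neurofilament, went from 0.73 to 2.02, ARC, a synaptic plasticity gene, from 4.21 to 6.60, and NPTX2, a synaptic pentraxin, from 2.74 to 4.28. ETV5, a transcription factor downstream of ERK, went from 1.59 to 4.50, TNFRSF10B, a death receptor, from 0.27 to 1.57, FTL, the ferritin light chain, from 0.79 to 1.80 and the gene AC093323.1 from 1.503 to 2.79. In the other direction stood ATP9A, a lipid flippase (-0.24 to -1.5995), AGPAT3, an acyltransferase of phospholipids (-0.43 to -1.54), POGLUT3, a sugar transferase (-0.34 to -1.77), KREMEN1, a receptor for the Wnt inhibitor DKK1 (-0.31 to -1.73), and AL445423.3 (-0.51 to -1.93). MAP2K6, which activates p38 kinases, went from -0.36 to -2.02, with -1.996 in new RNA at 4 h, and STK39, a kinase that regulates ion transport, from -0.25 to -1.68, with -2.13 in new RNA. IGFBP5, which binds insulin-like growth factors, turned round. It had 393 and 373 normalized counts without auxin and a mean of 648 with it at 4 h (0.76, SE 0.11), a change of -0.98 at 12 h, and -0.01 in new RNA.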

How the data were processed

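RNA was sequenced as stranded dUTP libraries with 1 of 2 kits, per the labels' protocols; the sources used here do not say which kit made which library. STAR 2.7.3a, the builds hg38 and dm6 and DESeq2 (version not stated) appear in the submitters' processing notes without roles; for annotation and counting tool the sources used here name nothing. The deposited log2 values and p-value columns, and the score columns that hold rounded mean counts, are the authors' comparisons, per the file headers. Normalized counts of untreated cells are a signal the authors deposited per library. The files hold no counts of single auxin libraries at 4 h, so the count test planned for that case was not run.

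A deposited column is log2 of the mean normalized count without auxin per kb. It resolved into whole reads of both libraries, with 1 solution for each of 14538 genes. Auxin means follow from it and from the mean over all 5 libraries; their log2 ratio differed from the deposited change by a median of 0.0015 over 10937 genes, which also checks the direction. SE is the change over the z of its p, with z at most 38 (12 genes had a listed p of 0 in the 4 h series, 8 in the 12 h series). The Wald test and the read recovery were tested on simulated data. Start sites are the 5′ ends of the deposited gene intervals. Exon numbers are the largest of any transcript in GENCODE v29.

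The 58 gene lists and all rules were chosen with earlier results of these data known. The result of 1 list is not reported here. Genes are named if their mean count is at least 100, they are called, and they are among the 20 largest rises or falls, the 4 largest of a list, the 3 largest of a non-coding class, the 8 largest differences between times in each direction, or the 8 largest with opposite calls in new RNA; INTS1 was named as the target, and the genes of largest gain or loss, the 9 genes without reads in the no-auxin libraries and the other list members named were added after their values were seen. Alternatives were an adjusted p of 0.01, a log2 change of at least 1 or 2, a mean count of at least 100, centring on the median, a test against a log2 change of 0.5, other promoter windows, the median of untreated libraries and leaving out genes with a listed p of 0. Analyses used Python 3.11.15, pandas 2.3.3, numpy 2.4.6, scipy 1.17.1 and matplotlib 3.10.9.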

Additional observations from a re-analysis of the deposited data

Results flagged for a closer look

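For 16 genes the deposited log2 change at 12 h differed from that at 4 h by the Wald z test with Benjamini-Hochberg adjustment, and these had the largest z in either direction. The difference, 12 h minus 4 h, was 2.04 for NEFM, 1.29 for NEFL, 1.31 for TNFRSF10B, 2.91 for ETV5, 1.28 for AC093323.1, 1.004 for FTL, 1.54 for NPTX2 and 2.40 for ARC. It was -1.36 for ATP9A, -1.11 for AGPAT3, -1.74 for IGFBP5, -1.65 for MAP2K6, -1.43 for POGLUT3, -1.42 for KREMEN1, -1.43 for AL445423.3 and -1.43 for STK39. IGFBP5 is the only one of the 16 whose change has opposite signs at both times.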

How the results depend on the processing

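Counts of called genes depended on the size asked for. A log2 change of at least 1 left 771 higher and 30 lower genes, and a test against a change of 0.5 left 697 and 60, so the even split of calls holds only where small changes count. An adjusted p of 0.01, a mean count of at least 100, centring and renewed adjustment each kept both counts within 1.5 times. The counts at a mean count of at least 100 use p-values adjusted again over those genes, which gave 2806 lower genes. At an adjusted p of 0.01, the genes higher at 4 h and smaller or opposite at 12 h numbered 109, and the lower ones 117. Genes lower in both total and new RNA numbered 623 at an adjusted p of 0.01. With a change of at least 0.5 in both assays 946 were higher and 271 lower, and opposite calls fell to 1 under either setting. The share of lncRNA genes higher was 45.7% at a mean count of at least 100 and 10.3% at an adjusted p of 0.01; that of 1-exon genes was 42.6% at the former; and that of genes with 17 or more exons called lower was 36.5% and 24.8%. TATAAA was in 13.3% of genes that rose by at least 1 and 21.8% at 2; on the gene's strand near the start, settings added after seeing the data, it was 9.13%, and 7.14% at low untreated levels. Of 272 named genes, 14 lost their call at an adjusted p of 0.01, none changed by centring, and 0 results reversed. Lists with more members higher than lower numbered 37 of 58, and 35 to 36 under the alternatives. No paired analysis was possible because the 4 h libraries carry no values per replicate in the files used; for the same reason no library could be left out. Depth limits genes with few reads without auxin.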
